A study of Homo sapiens with 6 samples.

Results

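MYC, MAX and the proteins that compete for MAX form a network of transcription factors whose 10 genes named here were MYC, MYCN, MYCL, MAX, MLX, MXD1, MXD3, MXD4, MNT and MGA. They are a list of names, set with earlier results of these data known, and all 10 were found among the 27576 genes of the deposited table. The libraries came from Kasumi-1, an established human line of acute myeloid leukaemia in which t(8;21) joins RUNX1 to RUNX1T1, grown in medium with 20% fetal bovine serum. Control cells were given 0.5% bovine serum albumin, and treated cells 10 ng/ml of recombinant human interleukin-10 (IL-10), both for 72 h, with 3 libraries in each group. No gene was altered in either group, and both are the same single line. Whether the 3 libraries of a group came from separate cultures is not stated, so p-values measure the spread between these libraries, which may be technical.

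MYC binds DNA only as a dimer with MAX, and the dimer recognises the E-box, written CACGTG, and raises transcription of genes for growth, ribosomes and metabolism. MAX also pairs with MXD proteins and MNT, which recruit the SIN3 corepressor to the same sites, and with MGA, a very large protein of the repressive PRC1.6 complex. MLX is a MAX-like protein that pairs with the glucose-sensing factors MLXIP and MLXIPL and with some MXD proteins and MNT. In acute myeloid leukaemia MYC drives proliferation and self-renewal, whereas MXD1 is known for its rise as myeloid cells mature.

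The 6 libraries held 20750115 to 24222897 recovered reads. Values are normalised reads, that is reads divided by a size factor per library. The myeloid and t(8;21) markers RUNX1T1, KIT, CD34, MPO, CD33 and PTPRC were at 1584 or more in every library, and the sum of the 7 markers ran from 134310 to 230365 in control and from 135057 to 216569 with IL-10. ELANE, the other marker of that list, was low, at 4.70 to 159. IL-10 replicate 2 stood apart, with GC-rich transcripts high and GC-poor transcripts low (values below). Both replicate 2 libraries also held liver transcripts. All 12 liver markers other than SERPINA1 were higher in these 2 libraries than in the other 4. Their sums were 1025 and 472 against 13.9 to 24.0, and 7 of the 12 were at 0 in the other 4. Of the 12, FGB and TTR were at 2.98 or less in every library. SERPINA1, the most abundant of the 13 listed, went the other way, at 879 and 1158 against 1300 to 1664. Summed over all 13, control replicate 2 stood at 1904 and IL-10 replicate 2 at 1630, against 1321 to 1681 elsewhere. Of 5 epithelial markers, KRT8 stood at 156 and 87.0 in the replicate 2 libraries against 4.28 to 11.2 elsewhere. KRT18 stood at 19.9 and 11.8 against 0 to 1.07, and KRT19 at 52.7 and 42.3 against 16.8 to 32.3. EPCAM went the other way, at 1675 and 1487 against 1862 to 1942, and CDH1 stood at 0 to 2.98. The fibroblast markers COL1A2, COL3A1, DCN and LUM had no row in the table, and COL1A1 stood at 0 to 4.70. The 5 airway secretory markers summed to 166 to 205 in control and 79.1 to 85.5 with IL-10, the 4 B cell markers to 999 to 1062 and 996 to 1634, and the 5 T and NK cell markers to 1640 to 2405 and 1782 to 2660, and the part of such cells or transcripts in the results was not tested. Same-numbered control and IL-10 libraries deviated together from their group means, so they are also compared as pairs 1, 2 and 3.

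The E-box is the sequence that every MAX dimer of the network reads, and 3 of the 12 promoters that the RefSeq promoter table (GRCh38.p14) lists for 9 members (all but MYC) carried it within the window from 250 bases before to 50 bases after the transcription start. These were MXD4, MNT and MLX, and the stretches around their E-boxes are printed because they show these letters in front of genes of the network. Capitals mark CACGTG, which reads the same on both strands. The gene strand is shown, 5′ to 3′.
MXD4: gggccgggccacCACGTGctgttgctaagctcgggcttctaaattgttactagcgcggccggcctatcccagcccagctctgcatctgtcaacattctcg
MNT: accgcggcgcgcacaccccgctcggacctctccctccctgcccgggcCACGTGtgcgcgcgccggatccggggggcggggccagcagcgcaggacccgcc
MLX: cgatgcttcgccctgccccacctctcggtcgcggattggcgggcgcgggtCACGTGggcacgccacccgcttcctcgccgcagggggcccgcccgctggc

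The MXD4 stretch is chr4:2262260-2262359 (minus strand), and its E-box begins at position -238 from the start. The MNT stretch is chr17:2401201-2401300 (minus strand), with the E-box from position -193. The MLX stretch is chr17:42567000-42567099 (plus strand), with the E-box from position -50. Over all 35116 promoters of the table, 7.26% held CACGTG. No CACGTG was found in the windows of MYCN, MYCL, MXD1, MXD3, MAX (2 starts) or MGA (3 starts), which says only that these letters were not in those windows. A match is a description of the sequence and not a measured binding site. All 3 promoters were rich in GC, at 72.3% for MXD4, 76.0% for MNT and 71.0% for MLX, where the median promoter had 58.7%.

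MYC, the main activator of the network, was by far its most abundant transcript. Levels between genes were compared per kilobase of transcript, scaled to the same sum over all genes in each library (a TPM-like level). On this scale MYC stood at 837 ± 120 in control (SD, n = 3), above 99.3% of tested genes. MAX, the partner it needs, followed at 73.7 ± 1.08, and MLX stood at 55.5 ± 4.01. MXD4, the most abundant of the MXD repressors, stood at 51.2 ± 5.10. The other MXD genes were lower, at 22.2 ± 0.699 for MXD3 and 17.0 ± 2.14 for MXD1. MGA stood at 20.9 ± 1.49 and MNT at 7.71 ± 0.545. The 2 further MYC genes were low, with MYCN, the neural and embryonic family member, at 16.8 ± 3.37, and MYCL at 4.07 ± 0.178.

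In that order, the control libraries of MLX and MXD4 overlapped, as did those of MXD3 with MGA and of MXD1 with MYCN, so these neighbours did not differ beyond their spread. Each control library of MYC was above each of MAX, and each of MAX above each of MLX. Each of MYCN was above each of MNT, and each of MNT above each of MYCL. The scale depends on the length used. The summed length of all annotated exons was also used in place of the longest transcript of the consensus coding set. MYC, MAX, MLX and MXD4 then kept the first 4 places at 1077 ± 147, 58.2 ± 0.563, 55.05 ± 3.57 and 48.1 ± 5.16. MXD3 fell to 15.9 ± 0.503, below MXD1 at 24.4 ± 3.26 and MGA at 27.8 ± 1.74, and MYCN rose to 27.5 ± 5.67. With each gene's longest APPRIS principal transcript, the model used in a first complete run, MYC had a level of 1386 ± 198.5, MAX of 97.5 ± 1.45, MLX of 53.1 ± 3.84 and MXD4 of 48.9 ± 4.88. That choice gave MYC a length of 1365 bases against 2366 here. The longest transcript of the consensus coding set replaced it after those results had been seen, because that MYC model holds the coding part only.

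**Figure D1:**
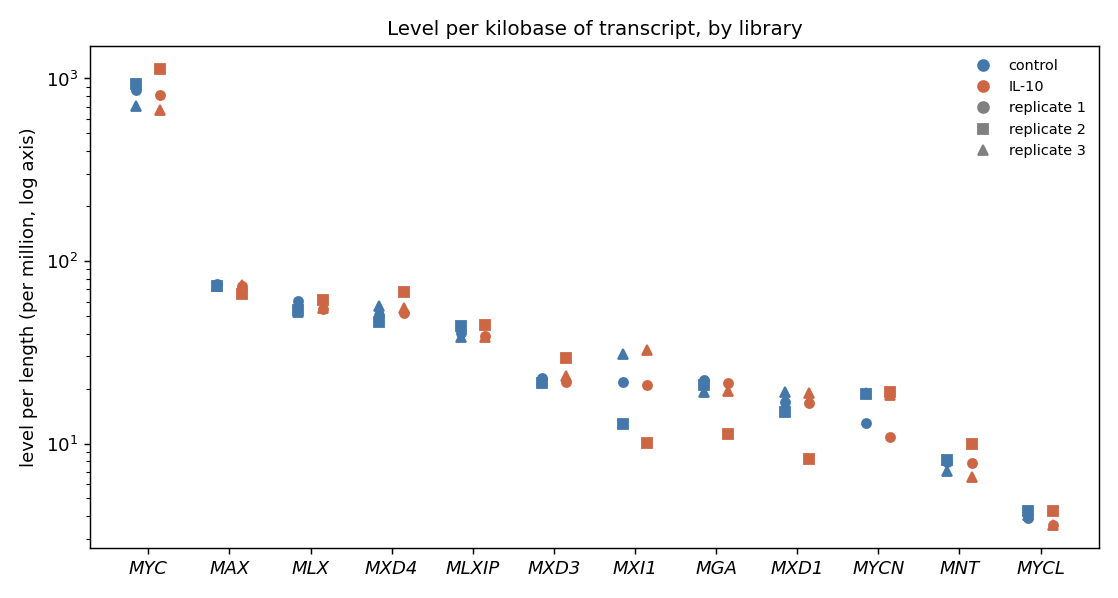
TPM-like level per kilobase of transcript (log axis) for the network genes and their partners MXI1 and MLXIP; blue points are control and orange points IL-10 libraries, with the marker shape giving the replicate. MYC lies between 670.5 and 1131 and every other gene lies below it in every library, and MXI1 spreads most.

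MYC made up nearly all MYC-family message. On the per-length scale its share of the 3 family members was 98.1%, 97.6% and 96.8% in control replicates 1 to 3 and 98.3%, 98.0% and 96.8% with IL-10. MYCN held 1.46%, 1.94% and 2.60% in control and 1.31%, 1.66% and 2.66% with IL-10. Replicate 1 had the highest and replicate 3 the lowest MYC share in both groups. MYC stood above MAX by factors of 11.6, 12.8 and 9.66 in the control libraries and of 11.2, 17.2 and 9.02 in the IL-10 libraries. With the principal transcripts the factors were 14.5, 16.0 and 12.1 in control and 14.0, 21.6 and 11.3 with IL-10, since another length multiplies the ratio by the same factor in every library. MYC was also set against the summed per-length level of the 6 repressive partners MXD1, MXD3, MXD4, MXI1, MNT and MGA. It stood at ratios of 6.10, 7.53 and 4.54 in control and 5.80, 8.25 and 4.30 with IL-10. With the principal transcripts these were 8.94, 11.2 and 6.62 in control and 8.55, 12.3 and 6.24 with IL-10. With the summed exon length they were 7.35, 9.17 and 5.43 in control and 7.00, 10.9 and 5.15 with IL-10. Both ratios were higher in IL-10 replicate 2 than in the other 5 libraries, and those of replicates 1 and 3 were close to their same-numbered controls. No test was made of these ratios.

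Whether 72 h of IL-10 moved these genes was tested between the groups of 3. None of the 10 passed the threshold (limma, adjusted p under 0.05 over 21946 genes), and none had an unadjusted p under 0.05 in limma, edgeR or DESeq2. Over all genes limma also called 0%, with 1.57% at an unadjusted p under 0.05, edgeR and DESeq2 called 0, and 257 and 94 genes had an unadjusted p under 0.05 in those. The 2 groups overlapped in all 10 members, where 5.87% of all genes tested had groups that did not overlap (2.85% with all IL-10 values higher, 3.02% with all lower). IL-10 replicate 2 was the highest of the 6 libraries for 8 members and the lowest for 2, whereas over all tested genes it was the highest for 31.1% and the lowest for 29.9%. All 10 passed the filter on low values, at 112 normalised reads or more in every library.

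MYC (ENSG00000136997, chromosome 8, 127735434 to 127741434, GRCh38) stood at 19759, 22024 and 15949 normalised reads in control replicates 1 to 3 and at 19098, 34174 and 15180.5 with IL-10. IL-10 replicate 2 was the highest of the 6 libraries and IL-10 replicate 3 the lowest, so the IL-10 values enclosed the control values. The group means were 19244 ± 3070 and 22817 ± 10028, and limma gave a log2 difference of 0.17 (SE 0.29, 95% interval -0.49 to 0.83, adjusted p = 0.982). Without IL-10 replicate 2 the value was -0.16 (95% interval -0.52 to 0.19). Control libraries alone differed by up to 1.38-fold, more than the log2 ratios of -0.05 in pair 1 and -0.07 in pair 3.

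MYCN (ENSG00000134323, chromosome 2, 15940564 to 15947007) stood at 324, 481 and 471 in control and 281, 636 and 459 with IL-10. Replicate 1 was low and replicate 2 high in both groups. The log2 fold change was 0.05 (SE 0.30, 95% interval -0.63 to 0.74), and -0.22 without IL-10 replicate 2. MYCL (ENSG00000116990, chromosome 1, 39895426 to 39902256) stood at 122, 137 and 126 in control and at 115, 179 and 112 with IL-10, so that IL-10 replicates 1 and 3 lay below all controls and IL-10 replicate 2 above them. Its log2 fold change was 0.04 (SE 0.24, 95% interval -0.50 to 0.58), and -0.17 without IL-10 replicate 2. Both had an adjusted p of 0.990 in limma.

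MAX (ENSG00000125952, chromosome 14, 65006174 to 65102695), the obligate partner, varied least, by coefficient of variation, over the 5 libraries other than IL-10 replicate 2. It stood at 1545, 1554 and 1495 in control and 1549, 1796 and 1523 with IL-10, and only IL-10 replicate 2 lay above the control range. The log2 fold change was 0.08 (SE 0.15, 95% interval -0.26 to 0.42), or 0.005 without that library (95% interval -0.20 to 0.21). MLX (ENSG00000108788, chromosome 17, 42567068 to 42573239) stood at 1496, 1382 and 1302 in control and 1394, 2008 and 1373 with IL-10. IL-10 replicates 1 and 3 fell inside the control range. The difference for MLX on the log2 scale was 0.17 (SE 0.19, 95% interval -0.26 to 0.60), or -0.01 without IL-10 replicate 2. The adjusted p was 0.982 for both in limma.

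**Figure D2:**
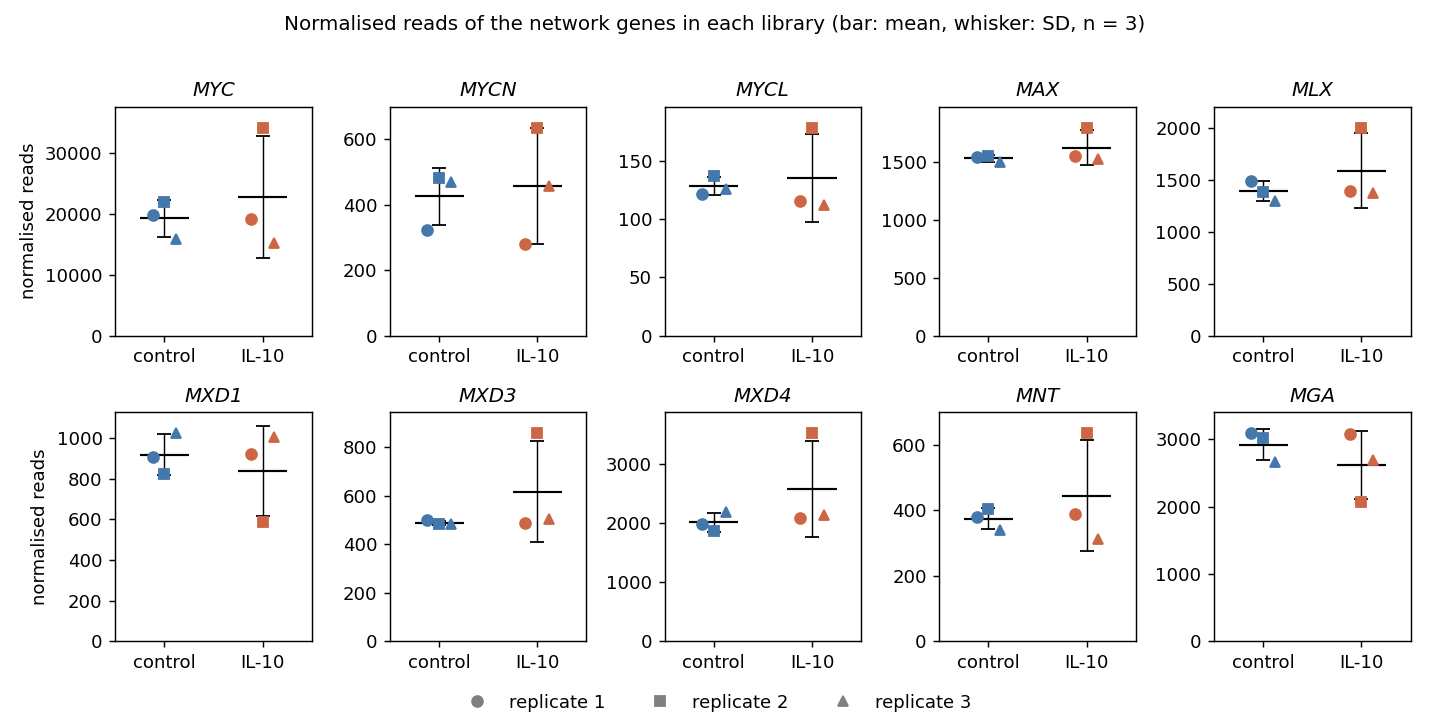
Normalised reads of each of the 10 network genes (vertical axes from 0) in control (blue) and IL-10 (orange) libraries, with the replicate as marker shape, the mean as a bar and the SD as whiskers (n = 3). IL-10 replicate 2 is the highest of 6 in 8 genes and the lowest in MXD1 and MGA, while the other 2 IL-10 libraries lie near their same-numbered controls.

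Of the MXD repressors, MXD3 and MXD4 had the 2 largest positive differences of the 10 members and MXD1 a negative one, none past the threshold. MXD4 (ENSG00000123933, chromosome 4, 2247432 to 2262294) stood at 1981, 1866 and 2194 in control and 2087, 3523 and 2141 with IL-10, with IL-10 replicates 1 and 3 inside the control range. The difference for MXD4 on the log2 scale was 0.32 (SE 0.22, 95% interval -0.18 to 0.82), or 0.07 without IL-10 replicate 2. MXD3 (ENSG00000213347, chromosome 5, 177301461 to 177312757), known for expression in dividing cells in S phase, stood at 498, 482 and 483 in control and 488, 858 and 506 with IL-10. The 5 libraries other than IL-10 replicate 2 lay within 482 to 506. Its log2 fold change was 0.29 (SE 0.23, 95% interval -0.24 to 0.82), or 0.03 without that library.

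MXD1 (ENSG00000059728, chromosome 2, 69897688 to 69942945), the differentiation-linked member, stood at 906, 824 and 1024 in control and 921, 588 and 1008 with IL-10. Here IL-10 replicate 2 was the lowest library and the other 2 IL-10 libraries lay inside the control range. Its log2 fold change was -0.16 (SE 0.22, 95% interval -0.67 to 0.35), or 0.07 without IL-10 replicate 2. The per-length level of MXD4 over that of MXD1 was 2.93 to 3.12 in 5 libraries and 8.26 in IL-10 replicate 2. MXD4 has 64.0% GC and MXD1 42.7%, and GC-rich transcripts were high in that library (values below). The part of GC content in this ratio was not tested.

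MNT (ENSG00000070444, chromosome 17, 2384060 to 2401118), the broadly expressed MAX-binding repressor, stood at 380.1, 403 and 339 in control and 388, 636 and 312 with IL-10. In both groups replicate 2 was the highest and replicate 3 the lowest. The difference for MNT on the log2 scale was 0.19 (SE 0.26, 95% interval -0.40 to 0.78), or -0.10 without IL-10 replicate 2. MGA (ENSG00000174197, chromosome 15, 41621224 to 41773081) stood at 3090.2, 3014 and 2663 in control and 3076, 2076 and 2696 with IL-10. Only IL-10 replicate 2 lay below the control range. Its log2 fold change was -0.18 (SE 0.18, 95% interval -0.59 to 0.24), or -0.02 without that library. The adjusted p of the 3 MXD genes, MNT and MGA was 0.982 in limma.

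All members but MYC share exon positions with other genes, and whether the counting used strand is not given in the sources used here. MXD3 overlaps PRELID1, a gene of the opposite strand with a mean of 1763 normalised reads, over 1158 bases, and RAB24 over 926 bases. MLX overlaps PSMC3IP over 770 bases, MXD1 overlaps SNRNP27 over 237 bases and MYCN overlaps its antisense gene MYCNOS over 98 bases. MYCL overlaps AL033527.2 over 226 bases and MAX overlaps AL139022.1 over 184 bases. MNT overlaps AC006435.1 over 1065 bases, MGA AC073657.1 over 510 bases and MXD4 MIR4800 over 80 bases, genes with no row in the deposited table. RAB24, SNRNP27 and MIR4800 lie on the same strand as the member, so strand could not separate their reads. Reads from such stretches cannot be told apart here.

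**Figure D3:**
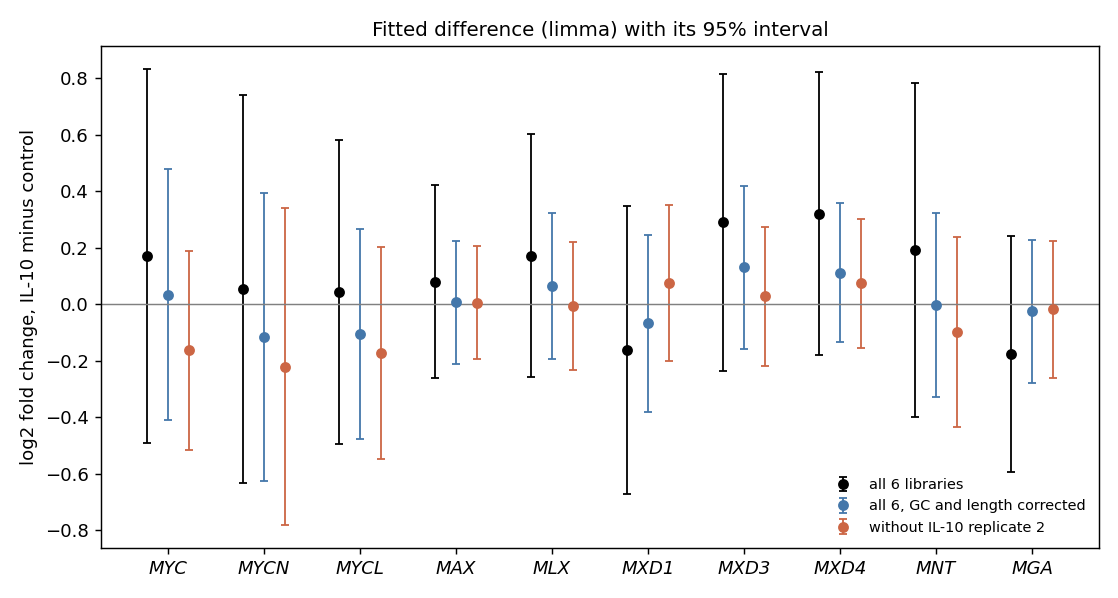
Log2 fold change (IL-10 minus control) fitted by limma for each member, with 95% intervals, from all 6 libraries (black), after correction for GC content and length (blue) and without IL-10 replicate 2 (orange). Every interval includes 0, and the intervals without that library are narrower than with all 6.

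Set side by side within pairs, the members hardly differed in pairs 1 and 3. All differed beyond counting error in pair 2, which holds the library that stood apart over all genes. The counting interval (exact, 95%, covering counting error only and comparing libraries, not conditions) included 0 for 9 of 10 members in pair 1 and for 9 of 10 in pair 3. The exception in both was MYC, the member with the most reads, whose log2 ratio was -0.05 (-0.08 to -0.02) in pair 1 and -0.07 (-0.10 to -0.04) in pair 3. A 1.5-fold difference was reached by 0 members in pair 1 and 0 in pair 3, where 0.612% and 0.414% of all genes with a mean of at least 50 reached it. In pair 2 it was reached by 4 members, MYC, MXD3, MXD4 and MNT, where 35.2% of all genes reached it.

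In pair 2 the interval lay above 0 for 8 members and below 0 for 2. The share of all genes whose counting interval excluded 0 was not computed in any pair. These counts therefore describe the members and do not set them apart from other genes. MXD4 had the highest log2 ratio there, 0.92 (0.83 to 1.00), followed by MXD3 at 0.83 (0.66 to 1.00), MNT at 0.66 (0.47 to 0.85) and MYC at 0.63 (0.61 to 0.66). MLX had 0.54, MYCN 0.40, MYCL 0.38 and MAX 0.21. MGA had -0.54 (-0.62 to -0.45) and MXD1 -0.49 (-0.65 to -0.33). Of the 10 members 8 had a positive log2 fold change in the fit of all libraries, where 52.0% of all genes did, with a median of 0.13 against 0.02 for all genes. Leaving out 1 library moved the members' median between -0.01 without IL-10 replicate 2 and 0.26 without IL-10 replicate 1. The member medians were -0.02, 0.47 and -0.03 in pairs 1, 2 and 3, against 0.00087, 0.03 and 0.0015 for all genes.

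**Figure D4:**
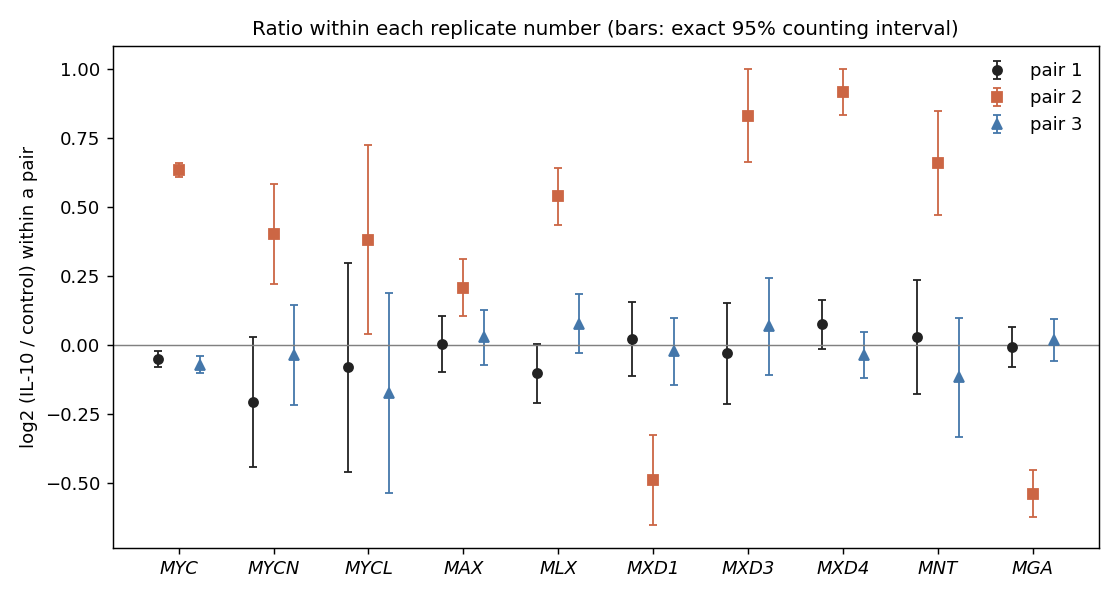
Log2 ratio of the IL-10 to the control library of the same number for each member; circles are pair 1, squares pair 2 and triangles pair 3, and bars are exact 95% counting intervals. Pairs 1 and 3 lie between -0.21 and 0.08, while pair 2 runs from -0.54 for MGA to 0.92 for MXD4.

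Members low in IL-10 replicate 2 were those poorest in GC, and members high there were richer in GC. All genes were divided by transcript GC content into 10 bins of equal size for comparison. The members poorest in GC, MGA (42.0%) and MXD1 (42.7%), were the 2 that were low in that library, with log2 deviations of -0.48 and -0.67 from the mean of the other 5 libraries, where the genes of their bin had a median of -0.33. MAX (49.5%) deviated by 0.23 against a median of 0.25 for its bin. The members richest in GC, MXD4 (64.0%) and MNT (61.4%), deviated by 0.78 and 0.81 against medians of 0.86 and 0.71. MYCN, MYCL and MXD3 deviated by 0.69, 0.54 and 0.80 against 0.63, 0.44 and 0.63.

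Of the 10 members, 7 lay within the interquartile range of their bin and 3 lay outside it. MYC (53.9%) deviated by 0.91, above the upper quartile of 0.65 in its bin, and MLX (51.8%) by 0.53, above 0.47. MXD1 lay below the lower quartile of -0.62. After correction for GC content and length the log2 fold changes of the members ran from -0.12 for MYCN to 0.13 for MXD3, with MYC at 0.03 (95% interval -0.41 to 0.48), 5 of 10 were positive, and none passed the threshold (adjusted p = 1.00 in limma). These placements depend on the transcript, and the one shown was chosen after results with the principal transcripts had been seen. With those, MYC (58.7% GC) lay inside the interquartile range of its bin, which reached 0.93, and MYCL (63.9% GC), at 0.54, lay below the lower quartile of 0.56, while MXD1 and MLX were again outside. The corrected differences were then positive for 3 of 10 members, with MYC at -0.02 and MAX at -0.02, and none passed the threshold.

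**Figure D5:**
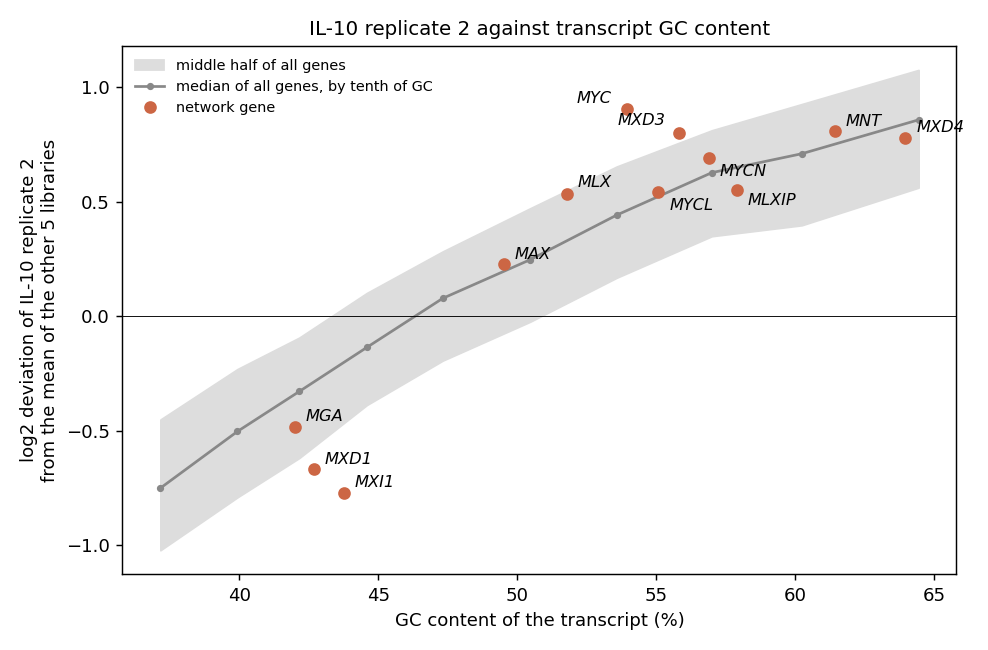
Log2 deviation of IL-10 replicate 2 from the mean of the other 5 libraries against the GC content of the longest transcript of the consensus coding set; orange points are the network genes with MXI1 and MLXIP, the grey line is the median of all genes in 10 bins of GC content and the band their interquartile range. MGA, MXD1 and MXI1 lie below 0 and the others, richer in GC, above it. MYC lies farthest above the band, though with its principal transcript (58.7% GC) it would lie inside. MXD1 and MXI1 lie below the band, with MXI1 at -0.77 where the median of its bin is -0.14.

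Of 3 further partners, 2 were tested and neither passed the threshold. MLXIP, the glucose-sensing partner of MLX also called MondoA, stood at 3290, 3679 and 3095 in control and 3220.2, 4790 and 3102 with IL-10, which limma put at 0.12 on the log2 scale (SE 0.20, adjusted p = 0.982). MXI1, a further MXD-type repressor that hypoxia is known to induce, differed more between replicates than any of the 10 members, at 725, 443 and 1030.3 in control and 714, 445 and 1079 with IL-10. Its replicate numbers kept their order in both groups, and its log2 ratios were -0.02, 0.01 and 0.07 in pairs 1, 2 and 3. MLXIPL, the liver-rich partner of MLX also called ChREBP, fell below the filter and had 12 reads in control replicate 2, 10 in IL-10 replicate 2 and 0 in the other 4 libraries, where a count of 0 allows up to 3 reads. Those 2 libraries were also the ones with liver transcripts, whose part in this value was not tested.

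Genes that work with the network, 130 of them tested in 10 lists, gave 0 calls in limma, with 1 at an unadjusted p under 0.05, and edgeR and DESeq2 also gave 0. The groups did not overlap in 4 of the 130 (3.08%, against 5.87% of all genes). Counts of positive differences in the lists below stand beside 52.0% positive over all genes tested. FBXW7, the ubiquitin ligase subunit that marks MYC for destruction, stood at 851, 948 and 911 in control and 809, 668 and 798 with IL-10, a log2 fold change of -0.26 (SE 0.16). SIN3A, the corepressor scaffold, stood at 2851, 2695 and 2732 in control and 2886, 2853 and 2887 with IL-10 (0.06, SE 0.14). SIN3A and IMPDH2 were named after their values were seen. IMPDH2, an enzyme of guanine nucleotide synthesis, had 0.20 (SE 0.18), and SYCP3, a meiotic chromosome protein near the floor of detection with 9 to 35 reads a library, had -0.89 (SE 0.34). The adjusted p of all 4 was 0.982 in limma.

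Genes that MYC is known to activate had 26 of 41 tested members with positive and 15 with negative differences, and 0 passed. Their median log2 fold change was 0.15, against 0.02 for all genes, and their medians in pairs 1, 2 and 3 were 0.03, 0.29 and -0.02. The median was -0.04 without IL-10 replicate 2. ENO1, a glycolytic enzyme, stood at 77849, 62382 and 104172 in control and 75739, 105599 and 106539 with IL-10. PTMA, prothymosin alpha, stood at 73554, 64029 and 91884 in control and 76541, 78300.2 and 94308 with IL-10. Both were higher in replicate 3 than in replicate 1 of either group. NME1, a nucleoside diphosphate kinase, had the smallest p of the positive members, with a log2 fold change of 0.40 (SE 0.32) and ratios of 0.22, 0.74 and 0.25 in pairs 1, 2 and 3. NOP58, a nucleolar protein, had the smallest of the negative ones, at -0.27 (SE 0.19).

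Genes that MYC is known to repress had 5 of 8 positive differences, a median of 0.12 and 0 past the threshold. Their medians in pairs 1, 2 and 3 were 0.06, 0.10 and -0.02, and the median over all libraries became -0.08 without control replicate 2. CEBPA, the granulocytic differentiation factor, stood at 139.7, 182 and 148 in control and 191, 389 and 177 with IL-10, a log2 difference of 0.60 (SE 0.31, 95% interval -0.10 to 1.30, with an adjusted p of 0.982 from limma). It was higher with IL-10 in each pair, by 0.45, 1.09 and 0.26, though the groups overlapped. NDRG1, which hypoxia also induces, ranged over 661, 176 and 3358 in control and 639, 299 and 3569 with IL-10, so it differed far more between replicate numbers than between the groups at 1 number. CDKN1B, a cyclin-dependent kinase inhibitor, had -0.01 (SE 0.16) and NDRG2, at 14.2 to 20.9 normalised reads in 5 libraries and 9.40 in IL-10 replicate 2, had -0.35.

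MYC cofactors had 16 of 18 positive differences, where 52.0% of all genes were positive, and 0 past the threshold. Their median was 0.16, with pair medians of 0.00039, 0.40 and 0.0025. Without IL-10 replicate 2 the median was -0.09. HCFC1, a chromatin adaptor of MYC, stood at 6285, 8467 and 5555 in control and 6290, 14506 and 5571 with IL-10, and RUVBL2, an ATPase of the TIP60 complex, had a log2 fold change of 0.27. BPTF, a chromatin remodelling subunit, had -0.27. Genes of MYC protein turnover had 10 of 15 positive and a median of 0.04, with pair medians of 0.01, 0.01 and -0.02. The median was -0.06 without IL-10 replicate 2 and 0.13 without control replicate 2. The abundant members SET and HUWE1 had 0.03 and 0.09, and the MYC-stabilising kinase gene PIM2 had 0.20. Regulators at the MYC locus and promoter had 4 of 9 positive and a median of -0.03, which was 0.03 without IL-10 replicate 3, with HNRNPK at 0.01, CNBP at -0.04, PUF60 at 0.31 and FUBP1 at -0.16. No member of these lists passed the threshold.

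On the repressor side, the SIN3 and HDAC genes through which MXD proteins act had 11 of 15 positive differences and a median of 0.06, or 0.02 without IL-10 replicate 3. HDAC1 and RBBP7 had 0.06 and -0.0027, while BRMS1 had 0.34 and ARID4A -0.50, the last at 293 normalised reads in IL-10 replicate 2 and 816 to 1043 elsewhere. Subunits of PRC1.6, the complex that holds MGA, had 4 of 9 positive and a median of -0.03, which was 0.08 without control replicate 2. Their pair medians were 0.07, -0.20 and -0.01. TFDP1 had 0.10, CBX3 -0.20 and RING1 0.25. Of 12 germline genes that PRC1.6 is known to keep silent, 5 had no row in the table, 3 fell below the filter and 4 were tested. Of these 4, 2 were positive and 2 negative, with a median of -0.24, which was 0.25 without IL-10 replicate 2. Their pair medians were -0.72, -0.18 and 0.26. STAG3 had 0.28 and ZCWPW1 0.08, both at 14.9 to 90.2 normalised reads, and SYCP3 had -0.89. Targets of MLX dimers had 7 of 9 positive and a median of 0.06, with pair medians of 0.03, 0.02 and 0.04. The median became 0.29 when IL-10 replicate 2 was left out and -0.08 when control replicate 2 was. Each of these fits keeps 1 library of pair 2, so differences between replicate numbers enter it. The lipid enzymes FASN, SCD and ELOVL6 had 0.24, 0.10 and -0.09, and the low G6PC1 had 0.31. None of these lists held a gene past the threshold, over all genes tested.

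Over the 6 libraries, the genes most like MYC by Pearson correlation of log2 values were FBXO31 (0.999), SMCR8 (0.999) and NRROS (0.998), of 11603 compared, and 213 genes exceeded 0.99. Without IL-10 replicate 2 these 3 stood at 0.997, 0.997 and 0.996. Among those most like MAX were MYH9 and MRPL55 (each 0.999), both with 0.984 without that library. These values describe 6 libraries that share their normalization, and many genes reached them.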

How the data were processed

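RNA of 6 Kasumi-1 libraries was prepared with Trizol and an Illumina TruSeq kit, per the labels' protocols. The authors deposited a table named as FPKM whose values are a normalised signal: reads divided by a size factor of each library. All values (100%) were whole multiples of the library's step (tolerance 0.01 read), with size factors of 0.851 to 1.12. Per the submitters' processing notes, edgeR 3.18.1 and the builds GRCh38 and hg38 were used, in roles that are not named. The aligner, counter, annotation and strand setting were not given in the sources used here. Symbols matched 26883 identifiers.

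Coordinates, lengths and GC content came from GENCODE 29 (27052 matched). Neither the plan nor the labels named a transcript. A first complete run used the longest APPRIS principal transcript. After its levels, GC comparison and GC-corrected fits had been seen, it was replaced by the longest transcript of the consensus coding set (otherwise the longest basic one), because the principal MYC model lacks UTRs. Results under both are given.

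The plan assumed normalised values and was kept. limma 3.58.1 (R 4.3.3), with its prior variance following mean log2(value + 1), tested 21946 genes of at least 1 in 3 or more libraries, by two-sided tests with Benjamini-Hochberg adjustment and a threshold of 0.05. This scale understates changes of low genes. Recovered reads were tested with edgeR 4.0.16 and DESeq2 1.42.0. Control replicate 2 has a step of 0.994, close to 1, so edgeR was also run without it. Tests were tried on simulated data. Other pseudocounts, filters and scalings, a GC and length correction, the replicate block and leaving out libraries were tried.

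Same-numbered libraries had deviations from their group means that correlated at 0.367, 0.605 and 0.726 (11605 genes of mean 50 or more). Control replicate 1 correlated with IL-10 replicate 3 at 0.208, and control replicate 3 with IL-10 replicate 1 at 0.176. The remaining differently numbered libraries correlated at -0.692 to -0.312. Each same-numbered value exceeds 0.1, but so do 0.208 and 0.176. The libraries were also compared as pairs by number. The main limma fit, with its intervals and p-values, did not use the pairing, and the replicate block was an alternative. The labels give a shared number and nothing more, so the pairing rests on the values. Counting intervals cover counting error only. The members and gene lists were chosen with earlier results of these data known. Genes named are the 10 members, MXI1, MLXIP and MLXIPL, per list the 2 of highest mean and that of smallest p in each direction, and the 3 most correlated with MYC and MAX. One gene that the last rule picks is not reported here. Others are said to have been named after their values were seen.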

Additional observations from a re-analysis of the deposited data

How the results depend on the processing

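No network member passed the threshold in any of 25 alternatives, 4 of them added after seeing the data, and neither did any gene of the 10 further lists. The count over all genes was 0 except in pairs 1 and 3 under the replicate block, where it was 11 with 1 residual degree of freedom. The replicate block on all 6 libraries left the log2 fold changes as they were, gave MYC an interval of -0.26 to 0.60 and changed no call. MXD3 and MXD4 were positive in all 25, which reuse the same 6 libraries. Pairs 1 and 3 alone gave them 0.019 and 0.020. In those pairs the log2 ratios were -0.03 and 0.07 for MXD3 and 0.08 and -0.04 for MXD4.

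Signs of others changed. A fit that leaves out 1 library keeps its same-numbered partner, so differences between replicate numbers enter its values. Leaving out 1 library gave -0.16 to 0.42 for MYC, -0.22 to 0.37 for MYCN, -0.17 to 0.16 for MYCL, 0.0047 to 0.12 for MAX, -0.31 to 0.075 for MXD1, 0.03 to 0.43 for MXD3, 0.07 to 0.45 for MXD4, -0.10 to 0.41 for MNT, -0.0079 to 0.27 for MLX, -0.30 to -0.02 for MGA, -0.30 to 0.34 for MXI1 and -0.082 to 0.23 for MLXIP. Pairs 1 and 3 alone, with or without the replicate block, gave MYC -0.060, MYCN -0.12, MYCL -0.13, MXD1 0.00010, MNT -0.044, MLX -0.012, MGA 0.0057 and MLXIP -0.014. The GC and length correction, with or without the block, gave MYCN -0.12, MYCL -0.10, MNT -0.0025 and MLXIP -0.033. The same correction from the principal transcripts, used first and replaced after its results had been seen, gave MYC -0.022, MYCN -0.11, MYCL -0.18, MAX -0.021, MNT -0.0016 and MLXIP -0.033, so the positive sign of MYC and MAX after correction depends on the transcript chosen. Equal library totals, which moved the median of all genes from 0.02 to -0.08, gave MYCN -0.048, MYCL -0.058, MAX -0.021 and MXI1 -0.083. MXI1 had -0.24 in edgeR without control replicate 2. The cause was not tested, beyond the fewer libraries in some fits. MYCL, with 108 to 152 reads a library, had the fewest reads of the members.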
